A study of Mus musculus with 36 samples.

Results

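The translation initiation and elongation factors were followed in primary mouse cortical cultures, as the protein-coding genes of the count table whose GENCODE symbol begins with Eif or Eef and a digit. Of 68 such genes, 66 had a mean count above 5 over the 36 libraries and were kept, 53 with an Eif symbol (initiation factors) and 13 with an Eef symbol (elongation factors and their modifying enzymes). They were 66 of the 20355 genes tested. The 2 genes under the filter were Eif4e1b, a germline cap-binding protein, and Eif4ebp3, an eIF4E-binding protein. The choice used symbols and the mean count alone, and no difference between groups, but was made with earlier results of these data known.

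The cells came from C57 mouse cortex at embryonic day 18 and were grown for 10 days. They were then kept for 72 h in fresh medium (control), in 1 µM DEX, a synthetic glucocorticoid, or in 1 µM DEX with 1 µM RU-486, which blocks the glucocorticoid receptor. Each group held 12 RNAseq libraries, 6 in each of 2 labelled batches. No group of RU-486 alone was analysed here, and the labels give neither the sex of the embryos nor whether libraries of a group came from separate dissections. The sample labels describe poly(A) RNA and the methods of the study a total RNA library.

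The RNA integrity number (RIN), a scale on which intact RNA scores high, ranged from 1.4 to 9.2. A RIN under 3 was labelled for 6 libraries, all of batch 2 and 2 per group, and the other 12 of that batch lay between 7.4 and 8.7. In batch 1 the 6 control libraries had a RIN of 7.8 to 9.2, and 16 libraries of all groups had 6 or above, with the 5 of DEX at 6.2 to 7.8 and the 5 of DEX + RU-486 at 6.6 to 7.9. The remaining batch 1 libraries, DEX library 12 at 3.9 and DEX + RU-486 library 18 at 5.6, belonged to neither class. Total counts ran from 12.1 to 82.4 M per library (median 24.96 M). Batch 1 control libraries held at least 24.2 M counts each and the DEX libraries of RIN 6 or above at most 15.1 M, so depth, RIN and treatment cannot be told apart there. Levels are given as counts per M (CPM), scaled by TMM factors. Neuronal markers (Tubb3, Map2, Snap25 and 7 others) summed to 2572 CPM or more in every library and 4 microglial markers to at most 7.35 CPM at RIN 6 or above.

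Translation of an mRNA begins when eIF2 brings the initiator tRNA to the small ribosomal subunit, eIF3 holds the complex together, and eIF4F (the cap-binding eIF4E, the scaffold eIF4G and the helicase eIF4A) loads it on the capped mRNA. Kinases of eIF2α and the eIF4E-binding proteins restrain these steps under stress or starvation. During elongation eEF1A delivers aminoacyl-tRNAs, eEF1B (Eef1b2, Eef1d, Eef1g) recharges it with GTP, and eEF2 moves the ribosome forward. The mRNAs of elongation factors and of several eIF3 subunits, like those of ribosomal proteins, are known as 5′ TOP mRNAs, which start with a C and a run of pyrimidines and whose translation follows mTOR activity.

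Of the 10 genes that were listed here as 5′ TOP mRNAs (the 6 elongation factors Eef1a1, Eef1a2, Eef1b2, Eef1d, Eef1g and Eef2, with Eif3e, Eif3f, Eif3h and Eif4b), 8 held a C followed by at least 6 C or T within the first 70 bases of their first coding transcript in GENCODE M21. Such a run was in the same window of 22 of 56 other initiation and elongation factors (39.3%) and of 3778 of 14609 tested coding genes (25.9%), so the letters are common. Eef1b2 and Eef1g did not hold these letters in this window. Searched on the transcript strand only and shown because all 10 genes were called higher at low RIN in batch 2 (0.50 to 2.18 on the log2 scale; 5 of them were called in the slope with RIN of batch 1 and 0 in either treatment), the 30 bases around the run are printed for 7 of the 8, 5′ to 3′ with the run in capitals, from the GENCODE M21 transcripts with coordinates on GRCm38.
Eef1a1 (chr9:78481647-78481676, minus strand): acgttCTTTTTCgcaacgggtttgccgtca
Eef1a2 (chr2:181156974-181157003, minus strand): tggttCTCTCCCTCgctccggtgcatcatt
Eef1d (chr15:75909288-75909317, minus strand): gggcgCCCTCCCTCTCCTTTgcagtcctga
Eif3e (chr15:43282686-43282715, minus strand): aagcgCTCCTTTCCCCCggcaagatggcgg
Eif3f (chr7:108934417-108934446, plus strand): CTCTTTCTCggcaagatggcttctccggcc
Eif3h (chr15:51865462-51865491, minus strand): tcacgCTTCTCTTTCTTCCTgtctggctgg
Eif4b (chr15:102073778-102073807, plus strand): cgccaCCCCCTCgcgctgctttacgaaccc
Only the run of Eif3f, among those printed, began at the annotated first base. The others began at base 10 (Eif3e), 11 (Eif4b), 17 (Eef1a2), 18 (Eef1d), 38 (Eif3h) and 54 (Eef1a1) of the annotated transcript.

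Levels spanned a wide range, with Eef1a1 and Eef2 at the top. Per kilobase of exon, in the 10 control libraries of RIN 6 or above, Eef1a1 averaged 685 CPM per kb and Eef2 225 CPM per kb, ahead of Eif1b, a start-codon selection factor (123 CPM per kb), and Eef1a2, the neuronal and muscle form of eEF1A (85.3 CPM per kb). The eIF3 subunits Eif3c and Eif3h followed at 70.5 and 64.0 CPM per kb, then Eif4a1 at 60.1 and Eif5a at 58.8 CPM per kb. Of the eEF1B genes, Eef1g had 54.2, Eef1b2 43.6 and Eef1d 9.03 CPM per kb, which placed them 11th, 12th and 37th of the 66. Eef1a1 alone had 1707 ± 306 CPM (SD, n = 10) without the length correction. At the other end, the lysine methyltransferase Eef1akmt3 averaged 0.183 CPM and Eif2ak2 (PKR, the kinase activated by double-stranded RNA) 0.443 CPM. The 66 genes held 0.622% to 1.12% of all counts of a library.

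The first question was whether DEX changed these mRNAs and whether RU-486 prevented it. With all 36 libraries in one model and the batch as covariate, 0 of the 66 genes passed an adjusted p of 0.05 in DEX against control, where 0.0246% of all genes did (0.0147% higher, 0.00983% lower; edgeR quasi-likelihood test, Benjamini-Hochberg adjustment). At an unadjusted p under 0.05 there were 15 of 66, where 16.9% of all genes were, and all 15 were initiation factors. DESeq2 called 2 higher and 2 lower (1.15% and 1.1% of all genes). The nearest were Eif2ak3 (log2 fold change 0.54, adjusted p = 0.0791), Eif2ak1 (-0.38, adjusted p = 0.0832) and Eif4g3 (-0.30, adjusted p = 0.0832). In DEX + RU-486 against control 0 genes of the 66 were called, against 0% of all genes. At an unadjusted p under 0.05 there were 17 of 66, where 10.8% of all genes were, and DESeq2 called 1 in each direction (0.231% of all genes higher and 0.364% lower). The nearest there were Eif4g1 (-0.31, adjusted p = 0.122), Eif4ebp1 (0.71, adjusted p = 0.167) and Eif2ak1 (-0.36, adjusted p = 0.184). Between DEX + RU-486 and DEX 0 were called by either tool (0% of all genes by edgeR), and 0 of the 66 had an unadjusted p under 0.05, where 2.68% of all genes did. Eif5b (-0.22), Eif4e2 (-0.16) and Eif3b (-0.19) had the smallest p in that comparison.

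Leaving out the 8 libraries of RIN under 6 changed these counts. In the remaining 28 libraries of RIN 6 or above (10 control, 9 DEX, 9 DEX + RU-486), 18 of the 66 genes changed in DEX against control. Of these, 6 were higher and 12 lower, where 7.83% of all genes were higher and 11.9% lower. All 18 were initiation factors or their regulators, 18 of 53, and 0 of the 13 elongation genes were called (1 at an unadjusted p under 0.05, where 32.3% of all genes were). The median log2 fold change was -0.05 over initiation factors, 0.03 over the elongation genes and 0.01 over all genes tested. In batch 1, however, control libraries had a RIN of 7.8 to 9.2 and DEX libraries of 6.2 to 7.8, and with RIN as a covariate 0 of the 18 were called. All 18 kept their sign there, 10 had an unadjusted p under 0.05, and the median log2 fold change in the called direction was 0.22 against 0.33. The 18 were chosen by their call in the same libraries, so these counts are a description. The share of all genes in the fit with RIN is not given here. In proportion, the log2 fold changes that shrank most were those of Eif4ebp1 (from 0.62 to 0.13), Eif1b (-0.29 to -0.07), Eif2b4 (0.36 to 0.12), Eif4e (-0.36 to -0.18), Eif2ak3 (0.64 to 0.32) and Eif6 (0.31 to 0.18).

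Among the 11 genes of eIF4F and its helpers, 6 fell with DEX and 0 rose, where 11.9% of all genes fell and 7.83% rose. The median log2 fold change of the 11 was -0.25. With RIN as a covariate 0 of the 6 were called, without the share of all genes. In that fit 5 of the 11 had an unadjusted p under 0.05, all lower (Eif4a2, Eif4g1, Eif4g2, Eif4g3 and Eif4h). The median of the 11 there was -0.18. In batch 2 alone also 0 of the 6 were called, where few of all genes were (shares given further below). Eif4e, the cap-binding subunit, lay at 46.9 to 63.4 CPM (median 57.3) in the 6 control libraries of batch 1. It was 32.04, 33.1, 36.3, 37.1 and 45.3 CPM in the 5 DEX libraries, and 34.1, 36.9, 37.0, 40.0 and 42.7 CPM in the 5 DEX + RU-486 libraries of that batch. Every treated library of batch 1 was below every control library. In batch 2 Eif4e was 40.8, 42.4, 44.9 and 49.2 CPM in control, 33.9, 41.8, 42.2 and 56.1 CPM in DEX and 39.9, 40.1, 43.7 and 46.1 CPM in DEX + RU-486, so that the groups overlapped. Over both batches its log2 fold change in DEX was -0.36 ± 0.10 (SE, adjusted p = 0.00882 by the edgeR quasi-likelihood test). The 2 batches differed, with -0.55 in batch 1 and -0.01 in batch 2 (interaction 0.60, adjusted p = 0.032).

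The scaffold genes behaved alike in batch 1. Eif4g1 lay at 257 to 321 CPM (median 276) in control libraries of batch 1, at 204, 208, 209, 215 and 251 CPM in DEX and at 187, 206, 209, 219 and 242 CPM in DEX + RU-486. All treated libraries were thus below all controls. In batch 2 the values were 199, 213, 214 and 221 CPM in control and 196, 202, 206 and 207 CPM in DEX, which overlapped. Its change in DEX was -0.25 ± 0.07 (adjusted p = 0.00916). Eif4g2, which drives cap-independent initiation, changed by -0.30 ± 0.08 (adjusted p = 0.0052). Its value was -0.43 in batch 1 but -0.04 in batch 2. Eif4g3, a second eIF4G, changed by -0.37 ± 0.08 (adjusted p = 0.00165), with -0.51 and -0.08. Both differed between batches (interaction 0.45, adjusted p = 0.0312, and 0.49, adjusted p = 0.0231), whereas for Eif4g1 the interaction was not called. The helicase Eif4a2 fell by 0.27 ± 0.07 on the log2 scale (adjusted p = 0.00585) and its cofactor Eif4h by 0.26 ± 0.07 (adjusted p = 0.0135). Eif4h had the larger value in batch 2 (-0.34, against -0.14 in batch 1) and there its 4 DEX libraries (71.0 to 103 CPM) all lay under its 4 controls (113 to 122 CPM).

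**Figure D1:**
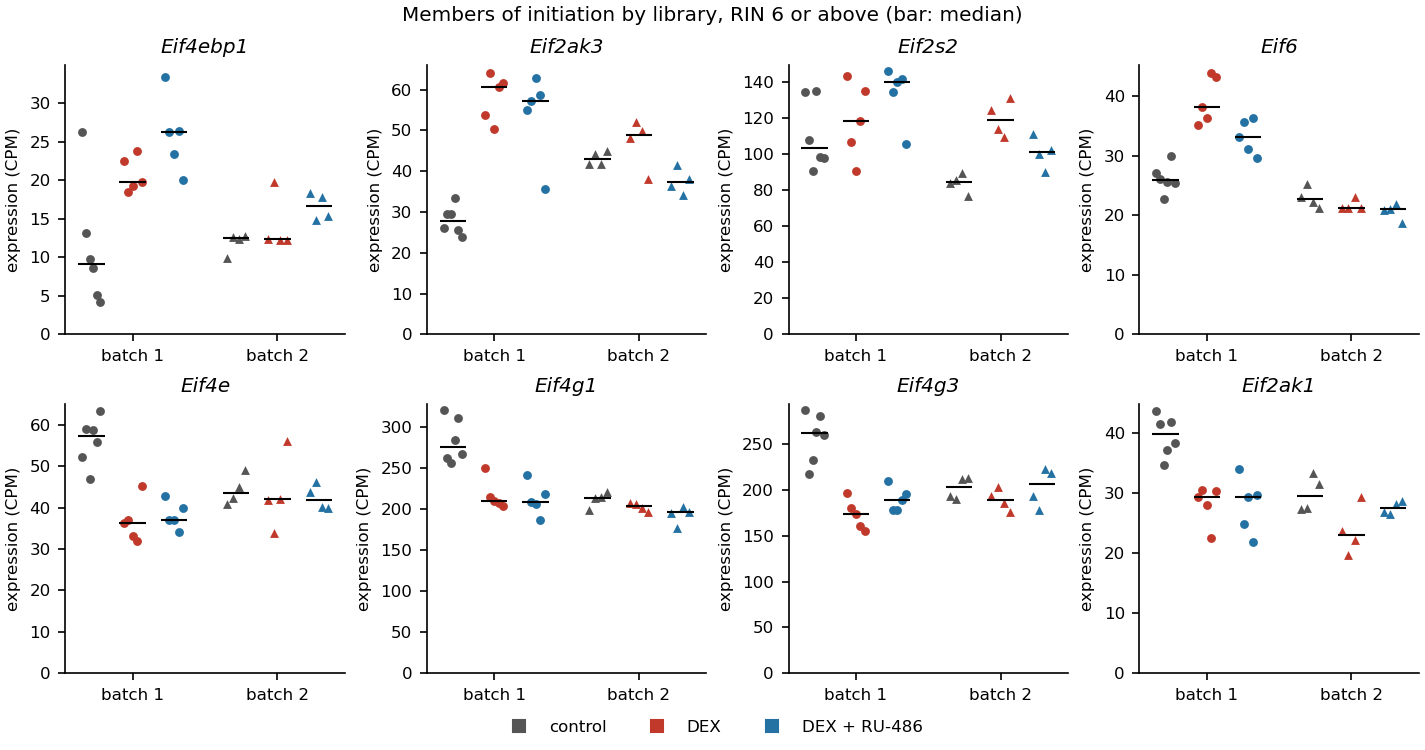
CPM of 8 initiation factors and regulators (y axis) in the 28 libraries of RIN 6 or above by batch and group, with a bar at each group's median and libraries ordered by RIN within a group. In batch 1 Eif4e, Eif4g1, Eif4g3 and Eif2ak1 are lower in all DEX libraries than in all control libraries and Eif2ak3 and Eif6 higher, whereas in batch 2 these groups overlap.

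Regulators of initiation moved in both directions. Eif4ebp1, which binds eIF4E and blocks eIF4F assembly when mTOR is inactive, rose by 0.62 ± 0.21 in DEX (adjusted p = 0.0367), but with RIN as a covariate the value was 0.13 ± 0.20 (adjusted p = 0.798). In batch 1 its 6 control libraries spread from 4.24 to 26.2 CPM (median 9.20), while DEX libraries held 18.5, 19.2, 19.8, 22.5 and 23.8 CPM and DEX + RU-486 libraries 20.1, 23.4, 26.2, 26.4 and 33.5 CPM. The 6 controls fell in the order of their RIN, at 26.2, 13.1, 9.77, 8.64, 5.09 and 4.24 CPM for a RIN of 7.8, 8.4, 8.5, 8.8, 8.9 and 9.2. Only control library 1 (RIN 7.8, the lowest of the controls), at 26.2 CPM, kept the DEX libraries from lying wholly above the controls. Without it the change in DEX was 0.85, and the call was lost when any 1 of 8 other libraries was left out. In batch 2 the values were 9.90, 12.4, 12.6 and 12.7 CPM in control, 12.2, 12.3, 12.4 and 19.8 CPM in DEX, and 14.8, 15.4, 17.9 and 18.3 CPM in DEX + RU-486. There every DEX + RU-486 library exceeded every control, and DEX did not separate from control. Eif4enif1, which carries eIF4E into the nucleus and into P-bodies, fell by 0.24 ± 0.06 (adjusted p = 0.00707). Eif4ebp2, the main brain form of the binding proteins, was not called in either treatment.

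Of the 4 eIF2α kinases, 1 rose and 1 fell. Eif2ak3 (PERK, the kinase of endoplasmic reticulum stress) was at 23.8 to 33.4 CPM (median 27.8) in batch 1 control libraries, against 50.2, 53.7, 60.7, 61.7 and 63.9 CPM in DEX. The 5 DEX + RU-486 libraries of the batch held 35.6, 54.9, 57.2, 58.6 and 62.9 CPM, all above every control as well. In batch 2 it was 41.7, 41.8, 44.3 and 44.8 CPM in control, 38.0, 48.0, 49.9 and 51.9 CPM in DEX, and 34.1, 36.5, 38.1 and 41.6 CPM in DEX + RU-486. Here DEX overlapped control, and DEX + RU-486 lay below control. Its change in DEX over both batches was 0.64 ± 0.14 (adjusted p = 0.00148), made up of 1.11 in batch 1 and 0.14 in batch 2, and this difference was called (interaction -0.92, adjusted p = 0.00369).

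Eif2ak1 (HRI, the heme-regulated kinase) had the smallest p of the 66 genes, at -0.43 ± 0.09 (adjusted p = 0.00134). It lay at 34.6 to 43.5 CPM (median 39.8) in batch 1 control libraries and at 22.5, 27.9, 29.3, 30.4 and 30.5 CPM in DEX, with no overlap. In batch 2 it was 27.3, 27.6, 31.4 and 33.3 CPM in control and 19.7, 22.1, 23.7 and 29.4 CPM in DEX, where 3 of 4 DEX libraries were below all controls. The values of -0.44 in batch 1 and -0.32 in batch 2 were close. Eif2ak4 (GCN2, the amino acid sensor) and Eif2ak2 were not called.

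In the eIF2 complex itself Eif2s2, the β subunit, rose by 0.29 ± 0.10 (adjusted p = 0.0308). In batch 2 its 4 DEX libraries, at 109, 114, 124 and 131 CPM, were all above the 4 controls at 76.6, 83.7, 85.3 and 89.2 CPM. In batch 1 the controls (90.4 to 135 CPM, median 103) and the DEX libraries (90.6 to 143 CPM) overlapped. Eif1ax, the start-codon scanning factor eIF1A, fell by 0.37 ± 0.09 (adjusted p = 0.00556) and Eif1b by 0.29 ± 0.10 (adjusted p = 0.0443). Subunits of eIF2B, which exchanges the GDP on eIF2, went apart, with Eif2b3 lower (-0.44, adjusted p = 0.0185) and Eif2b4 higher (0.36, adjusted p = 0.0185). Of 14 eIF3 genes Eif3j2 was higher (0.43, adjusted p = 0.0294) and Eif3l lower (-0.21, adjusted p = 0.0252), with a median of 0.03. Eif3j1 and Eif3j2 are near-identical copies, so that the split of reads between them is uncertain. Eif6, which keeps the large subunit from joining too early, rose by 0.31 ± 0.09 (adjusted p = 0.0126). The batches differed in this change (interaction -0.66, adjusted p = 0.00536). Batch 1 had 22.8 to 29.9 CPM (median 25.8) in control against 35.1, 36.4, 38.2, 43.3 and 43.9 CPM in DEX. In batch 2 it was 21.2 to 25.2 CPM in control and 21.2 to 23.1 CPM in DEX, a log2 fold change of -0.07.

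None of the 6 elongation factors was called in DEX. Eef1a1 was at 1686 to 2100.1 CPM (median 1959) in control and 1885 to 2305 CPM in DEX libraries of batch 1. In batch 2 it was 1266, 1312, 1421 and 1547 CPM in control and 1243, 1292, 1333 and 1361 CPM in DEX. In batch 2 Eef1b2 was at 102, 103, 109 and 130.4 CPM in DEX against 74.7, 94.8, 96.6 and 104 CPM in control, and Eef1g was 123 to 149.8 CPM against 111 to 125 CPM. These groups overlapped, and the log2 fold change of Eef1b2 in batch 2 alone, 0.28 (unadjusted p = 0.042, adjusted p = 0.27 by edgeR's quasi-likelihood test), did not pass the adjustment. The 6 elongation factors had a median log2 fold change of 0.02 with DEX and -0.03 with DEX + RU-486, and the smallest adjusted p among them was 0.329 and 0.511. For comparison, 8 of 76 ribosomal protein genes rose in DEX and 0 fell, near the 7.83% of all genes called higher, with a median of 0.15. With RIN as a covariate 0 of the 76 were called (6 at an unadjusted p under 0.05) and the median was -0.04.

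In DEX + RU-486 against control, 2 of the 66 genes were higher and 10 lower, where 2.99% and 5.87% of all genes were (8.86% in either direction). Again all were initiation factors or their regulators, and 0 of 13 elongation genes was called, with 2 at an unadjusted p under 0.05 (23.9% of all genes). Eif4ebp1 had the largest value (0.90 ± 0.21, adjusted p = 0.00793), followed among those higher by Eif2ak3 (0.45 ± 0.14, adjusted p = 0.0336). Lower were 5 of the 11 eIF4F genes, led by Eif4g1 (-0.30 ± 0.07, adjusted p = 0.00603), with Eif4g2 (-0.30), Eif4e (-0.36), Eif4a1 (-0.20) and Eif4g3 (-0.25). Eif4enif1 (-0.25), Eif2ak1 (-0.33), Eif1ax (-0.31) and Eif2s1, the α subunit on which the kinases act (-0.26 ± 0.08, adjusted p = 0.0338), were also lower. So was Eif5a2, the minor form of the hypusine-carrying eIF5A (-0.56 ± 0.17, adjusted p = 0.0342), which lay at 10.2 to 17.1 CPM (median 14.5) in control and 6.56 to 9.26 CPM in DEX + RU-486 libraries of batch 1. Eif2ak3 differed between batches, at 0.99 in batch 1 and -0.19 in batch 2 (interaction -1.13, adjusted p = 0.00208). With RIN as a covariate 1 of the 12, Eif4g1, was called. All 12 kept their sign with an unadjusted p under 0.05, and the median in the called direction was 0.24 against 0.30. These counts too describe genes chosen by their call in the same libraries, without the share of all genes in the fit with RIN. Eif2ak3 shrank most in proportion, from 0.45 to 0.24, followed by Eif4e, from -0.36 to -0.23.

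This comparison and that of DEX share the same 10 control libraries, so that they are not independent of each other. In DEX + RU-486 against DEX, 0 of the 66 were called by edgeR's quasi-likelihood test or by DESeq2, again against 0% of all genes. The smallest adjusted p-values were those of Eif5a (-0.16, adjusted p = 0.463), Eif3g (-0.24, adjusted p = 0.51) and Eif1ad (0.20, adjusted p = 0.541). Within batch 1 the DEX and DEX + RU-486 libraries overlapped for all 66 genes, where 0.418% of all genes were higher and 0.491% lower without overlap. Within batch 2, 2 genes did not overlap with DEX + RU-486 higher (Eef2k and Eif2ak4; 4.47% of all genes) and 6 with it lower (Eef1b2, Eef1g, Eif2b4, Eif3d, Eif3g and Eif5b; 3.93% of all genes). In the fit of batch 2 alone, 2 of the 66 (Eif3g and Eif5b) were called lower, where 0.811% of all genes were.

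**Figure D2:**
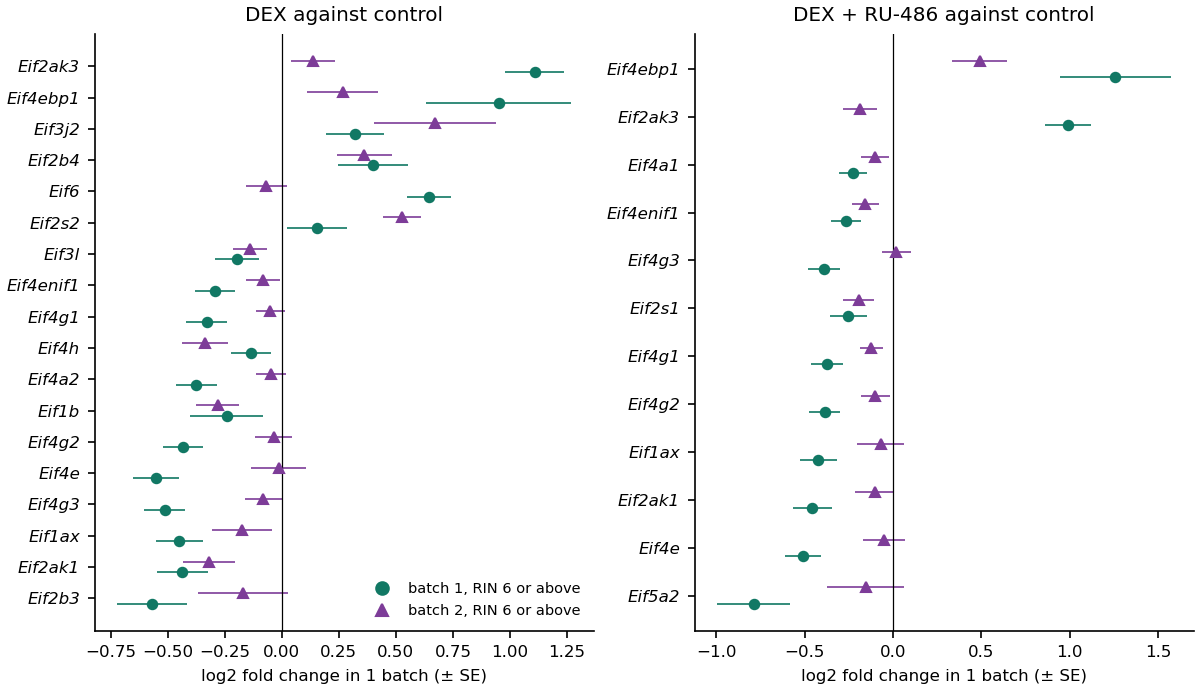
Log2 fold change against control with its SE (x axis) of the genes called in DEX (left, 18 genes) and in DEX + RU-486 (right, 12 genes), fitted in each batch alone at RIN 6 or above. Most values of batch 2 lie nearer to 0, with medians in the called direction of 0.42 in batch 1 and 0.15 in batch 2 for DEX and of 0.41 and 0.10 for DEX + RU-486.

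Each batch was also fitted alone. These are the libraries that chose the genes called above, so the counts are a description. Of the 18 genes called in DEX, all had the same sign in batch 1 and 12 were called there, where 9.26% of all genes were called higher and 9.71% lower. In batch 2, 17 had the same sign and 1 was called, where 0.329% and 0.236% of all genes were. Of the 12 called in DEX + RU-486, the same sign was seen for all in batch 1 with 10 called (6.36% of all genes higher and 7.09% lower), and for 10 in batch 2 with 0 called (0% and 0.00491%). The difference between batches was itself called for 7 of the 66 genes in DEX (4.25% of all genes), 5 of them with a positive sign, that is a higher value in batch 2 (3.18% of all genes), and 2 with a negative one (1.07%). In DEX + RU-486 it was called for 2 (1.91% of all genes), 1 positive (1.27%) and 1 negative (0.639%). Beyond those given above, the 7 held Eif5b, the GTPase of subunit joining (0.71, adjusted p = 0.0135), and Eif3e (0.52, adjusted p = 0.0382), and the 2 held Eif4e3 (0.72, adjusted p = 0.0396). Leaving out any 1 library kept the calls of Eif2ak3 in both treatments and of Eif6 in DEX, whereas in DEX that of Eif5b was lost in 3 of the 28 fits, that of Eif4g3 in 7, Eif4e in 13, Eif4g2 in 15 and Eif3e in 16, and in DEX + RU-486 that of Eif4e3 in 14. Eif5b was 94.5, 108, 131 and 143 CPM in batch 2 DEX libraries against 80.8 to 95.2 CPM in the 4 controls. In batch 1 it was 82.0 to 97.8 CPM in DEX and 89.6 to 134 CPM in control. In batch 1, 2 genes were higher and 8 lower in DEX without overlap of the groups, where 4.29% and 7.54% of all genes were. In batch 2 it was 3 (Eif2s2, Eif2s3y and Eif3e) and 4 genes (Eef2k, Eif1b, Eif3l and Eif4h), where 4.47% and 7.02% of all genes were. For DEX + RU-486 these counts were 1 higher (Eif2ak3) and 10 lower in batch 1, where 2.44% and 5.6% of all genes were. In batch 2 they were 4 higher (Eif2ak4, Eif2s2, Eif4e3 and Eif4ebp1) and 3 lower (Eef2kmt, Eif2ak3 and Eif2s1), where 2.8% and 4.11% of all genes were.

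Other cell types moved along with the treatments. Oligodendrocyte-lineage markers rose with DEX (8 of 9, median 1.00, against 0 of 9 and a median of 0.40 with RIN as a covariate), from a sum of 63.9 to 291 CPM in control to 496 to 804 CPM in DEX libraries of batch 1 and from 411 to 538 CPM to 671 to 1068 CPM in batch 2. Of 10 neuronal markers, 5 fell and 0 rose (0 called with RIN as a covariate). Their sum was 3423 to 4415 CPM (median 3964) in control and 2585 to 3694 CPM (median 2711) in DEX libraries of batch 1, and 2648 to 2970.3 CPM and 2572 to 2846 CPM in those of batch 2. The groups overlapped in both batches, with the larger difference between medians in batch 1. In addition, 4 of 7 astrocyte and 3 of 8 dividing-cell markers rose, where 7.83% of all genes did. Their counts with RIN as a covariate are not given here. Fewer cells of a type and less RNA per cell cannot be told apart in such bulk libraries, and the part of these shifts in the values of initiation factors was not tested. In DEX + RU-486, 4 neuronal markers fell and 0 of 9 oligodendrocyte-lineage markers was called over both batches. The neuronal sum was 2778 to 3714 CPM in batch 1 (median 2961) and had a median of 2672 CPM in batch 2, against 2792 CPM in control. The oligodendrocyte-lineage sum was 227 to 669 CPM in batch 1 (median 415 against 116 in control) and 141 to 401 CPM in batch 2, below all its controls.

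The rest of the translation machinery was counted beside these genes. Of 34 other cytosolic translation genes (release, recycling, cap and poly(A) binding, eIF2α phosphatases and others), 1 was higher and 3 lower in DEX at RIN 6 or above (7.83% and 11.9% of all genes), and 1 and 4 in DEX + RU-486 (2.99% and 5.87%). With RIN as a covariate 0 were called in DEX and 1 in DEX + RU-486. The gene that rose in both was Ppp1r15a (GADD34), which brings a phosphatase to eIF2α, at 1.11 ± 0.18 (adjusted p = 0.000276) and 0.86 ± 0.18 (adjusted p = 0.00458). The release factor Gspt1 and the poly(A)-binding protein partner Paip1 fell in both. Of 10 mitochondrial translation factors only Gfm1 was called, lower in DEX (-0.31, adjusted p = 0.0142).

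Many of these genes differed between libraries of low and high RNA integrity. Low-RIN libraries (1.4 to 2.7) made up 2 of the 6 per group in batch 2, beside 4 at 7.4 to 8.7. With the group as a covariate, 27 of the 66 genes were higher at low RIN and 17 lower, where 28.4% of all genes were higher and 26.8% lower. All 6 elongation factors were higher, with a median log2 difference of 1.77, as were all 10 genes listed as 5′ TOP mRNAs (median 1.65). The median was 0.09 over the initiation factors and 0.04 over all genes. The elongation factors did not stand apart as a group, since Eif3f, Eif3h and Eif3k lay among them while Eef1a2 was 10th and Eef1d 19th of the 66 in order of the difference. Upper-quartile scaling moved the median of all genes from 0.04 to 0.17 and left all 10 higher.

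Eef1a1 was at 3952 and 3991 CPM in the low-RIN control libraries, 4621 and 6169 CPM in those of DEX and 4910 and 5729 CPM in those of DEX + RU-486. The 12 libraries of RIN 6 or above in batch 2 ranged from 1098 to 1547 CPM. The 6 low-RIN libraries all lay above these, and the log2 difference was 1.85 ± 0.10 (adjusted p = 6.35e-12 by edgeR's quasi-likelihood test). Eef1b2 had the largest difference of the 66 genes, 2.18 ± 0.12 (adjusted p = 5.83e-12). It held 324 and 354 CPM in control, 403 and 614 CPM in DEX and 409 and 533 CPM in DEX + RU-486 at low RIN, against 65.1 to 130.4 CPM in the others. Eef2 held 1545 and 1732 CPM, 1802 and 2330 CPM, and 1894 and 2175 CPM in the same order, against 468 to 694 CPM (1.70 ± 0.09, adjusted p = 7.39e-12). Eef1g differed by 1.91 ± 0.11, the neuronal Eef1a2 by 1.10 ± 0.10 and Eef1d by 0.58 ± 0.08, each without overlap. Together these 6 genes held 0.400% to 0.587% of all counts at low RIN and 0.245% to 0.305% in the other libraries of batch 2. These shares are not scaled by TMM factors, and they set the classes less far apart than the CPM do.

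**Figure D3:**
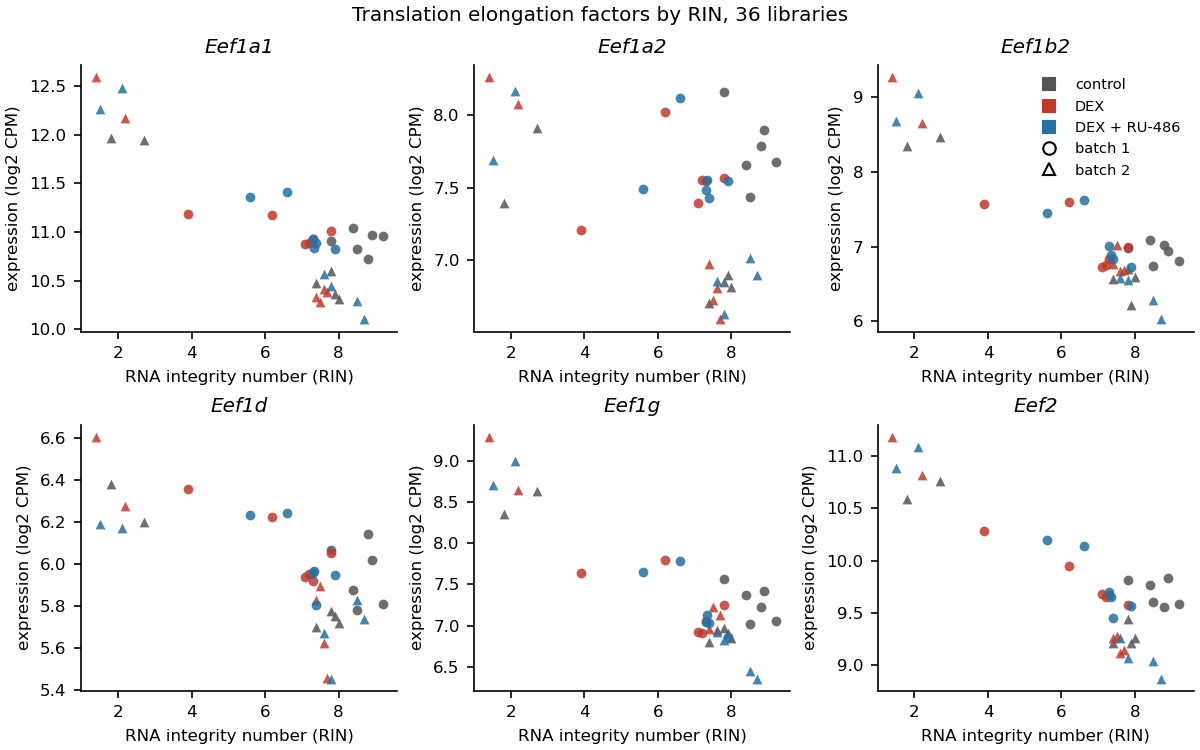
Log2 CPM of the 6 elongation factors (y axis, not starting at 0) against the RIN of each of 36 libraries (x axis), with colour for group, circles for batch 1 and triangles for batch 2. The 6 triangles at a RIN under 3 lie above all other triangles in every panel, in all 3 groups.

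The kinase that inactivates eEF2 went the other way. Eef2k held 24.5 to 33.2 CPM in low-RIN libraries and 39.6 to 55.2 CPM in the others, with no overlap, a log2 difference of -0.72 ± 0.09 (adjusted p = 8.49e-07). Among the modifiers Eef1akmt2 was lower as well (-0.35 ± 0.11, adjusted p = 0.00824), so that 6 elongation genes were higher and 2 lower of 13.

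Initiation factors differed in both directions, within some complexes as well as between them. Over all genes 28.4% were higher and 26.8% lower, the shares to set beside each count of this paragraph. Of 14 eIF3 genes, 10 were higher at low RIN and 0 lower, with a median of 0.56. Eif3f (1.83 ± 0.12), Eif3h (1.60 ± 0.11) and Eif3k (1.34 ± 0.10) led, and the first of these held 178 to 294 CPM against 43.1 to 80.2 CPM. Eif3e, Eif3d, Eif3b and Eif3i differed by 0.47 to 0.59. The scaffold Eif3a, by contrast, was not called. Of 12 genes of eIF2 and start-codon selection 0 were higher and 7 lower (median -0.29), among them Eif1a (-0.69), Eif1b (-0.42), Eif5 (-0.34), Eif2s1 (-0.33) and Eif2s3x (-0.26). The 11 eIF4F genes gave 4 higher and 4 lower, with Eif4b (0.50), Eif4e3 (0.41), Eif4e2 (0.33) and Eif4g2 (0.26) against Eif4a2 (-0.51), Eif4e (-0.45), Eif4g1 (-0.22) and Eif4g3 (-0.21). All 5 eIF2B genes were called, Eif2b4 (1.01), Eif2b2 (0.61) and Eif2b5 (0.26) higher and Eif2b1 (-0.45) and Eif2b3 (-0.47) lower. Eif4ebp2 (1.04), Eif2b4, Eif6 (0.81) and Eif5a (0.45) were higher without overlap of the classes. This holds for CPM scaled by TMM factors. Eif5a had 2224 counts of 27.3 M in DEX library 26 (RIN 1.4), scaled to 173 CPM. In DEX library 28 (RIN 7.4) it had 2411 counts of 21.3 M, scaled to 107 CPM. As a share of all counts Eif5a was thus lower in library 26 than in library 28. Eif2ak2 was also higher (1.21) but stayed at or under 3.17 CPM in all libraries.

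**Figure D4:**
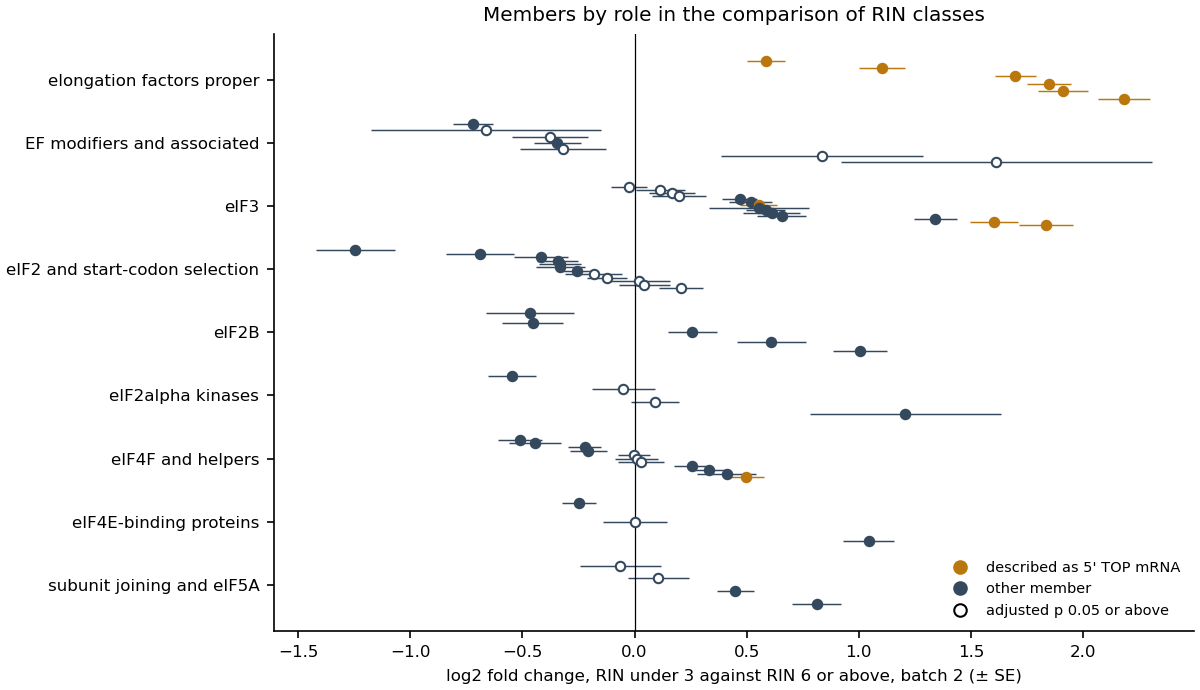
Log2 difference with its SE (x axis) between batch 2 libraries of RIN under 3 and of RIN 6 or above for the 66 genes, grouped by role. Amber points mark the 10 genes listed as 5′ TOP mRNAs and open points an adjusted p of 0.05 or more, and all 10 amber points are above 0.

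In all, 17 of the 66 genes lay higher and 2 lower (Eef2k and Eif2s3y) at low RIN without overlap, where 8.03% and 10.8% of all genes did. These counts too are of CPM scaled by TMM factors. The elongation factors were not extreme among all genes, since 5.78% of the 20355 had a larger difference than Eef1b2 and 8.42% a larger one than Eef1a1. Ribosomal protein genes behaved as they did, with 73 of 76 higher, 0 lower and a median of 1.56. Among other cytosolic translation genes 8 of 34 were higher and 11 lower, the 5′ TOP mRNA Tpt1 (2.05) and the poly(A)-binding proteins Pabpc1 (1.70) and Pabpc4 (1.08) among the first. Of 10 mitochondrial factors 1 was higher and 5 lower. Neuronal markers summed to 5758 to 10140.4 CPM at low RIN and to at most 4415 CPM at RIN 6 or above, with 6 of 10 higher and 4 lower. Dividing and progenitor markers summed to 104 to 189 CPM against at most 84.0 CPM at a RIN of 6 or above (6 of 8 higher), and oligodendrocyte-lineage markers to 468 to 2386 CPM against 141 to 1068 CPM in the other batch 2 libraries (7 of 9 higher). Of 7 astrocyte markers 5 were higher and of 6 fibroblast and vascular markers 4, and the part of these shifts in the differences was not tested. Across the 66 genes the difference ran only weakly with transcript length (Spearman's rho -0.10, against -0.07 over 14612 coding genes, a description without a test, since genes share the libraries).

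In batch 1 RIN was compared along a continuous scale. There it ran from 3.9 to 9.2, and the slope per RIN unit, with the group as a covariate, was called negative for 10 of the 66 genes and positive for 2, where 7.93% and 6.51% of all genes were. A negative slope means a higher level at lower RIN. Of the 6 elongation factors 4 were called, Eef2 (-0.23 per unit, adjusted p = 0.000701), Eef1b2 (-0.26, adjusted p = 0.00393), Eef1g (-0.25, adjusted p = 0.00824) and Eef1d (-0.13, adjusted p = 0.0269), whereas Eef1a1 (-0.13, adjusted p = 0.0668) and Eef1a2 (-0.01) were not. The eIF3 subunits Eif3a, Eif3b, Eif3c, Eif3d and Eif3h and Eif2b4 (-0.23) made up the rest of the negative slopes, although Eif3a and Eif3c had not been called between the RIN classes (0.20 and -0.02), and Eif1b (0.19) and Eif2s3x (0.34) had positive ones. Of the 12 slopes called, 6 (Eef1b2, Eef1g, Eef2, Eif2b4, Eif2s3x and Eif3a) were called whichever library was left out. Ribosomal protein genes again ran with them (54 of 76 negative, 0 positive).

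Within the treated groups of batch 1, the 2 libraries of lowest RIN stood apart for some of the elongation factors. Eef1b2 was 193 CPM in DEX library 7 (RIN 6.2) and 191 CPM in DEX library 12 (RIN 3.9), against 106 to 127 CPM in the other 4 DEX libraries of batch 1. In DEX + RU-486 it was 197 CPM in library 13 (RIN 6.6) and 175 CPM in library 18 (RIN 5.6), against 106 to 129 CPM in the others. Both pairs lay above every control library of batch 1 (107 to 136 CPM). Eef1a2 did not follow this order. It was 148 CPM in DEX library 12, the lowest of the batch 1 DEX libraries (168 to 261 CPM in the others), and 179.7 CPM in DEX + RU-486 library 18, within the range of the others (173 to 278 CPM). Across the 66 genes the slope and the difference of the classes had a Spearman's rho of -0.39, against -0.31 over all genes.

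The labelled batches differed over most of these genes. At RIN 6 or above, 42 of the 66 were lower and 4 higher in batch 2 than in batch 1, where 24.7% of all genes were lower and 23.4% higher (48.1% together). All 6 elongation factors were lower (median -0.49), as were 11 of 14 eIF3 genes and 34 of 53 initiation factors. Eef1a2 had the largest fall (-0.89 ± 0.08, adjusted p = 1.25e-09), from 168 to 287 CPM in batch 1 to 96.4 to 129 CPM in batch 2 without overlap. Next in size were Eif3j2 (-0.62 ± 0.12), Eif5a (-0.60 ± 0.05), Eef1a1 (-0.58 ± 0.07), Eif2s3x (-0.58 ± 0.10) and Eif6 (-0.57 ± 0.07), and Eef2 was at -0.53 ± 0.07. Higher were Eif2ak4 (0.30 ± 0.06), Eif4ebp2 (0.30 ± 0.06), Eif2ak2 (1.11 ± 0.35) and Eif2s3y (2.08 ± 0.70). Ribosomal protein genes were lower too (65 of 76, median -0.33), 7 of 10 neuronal markers were lower and 6 of 9 oligodendrocyte-lineage markers higher. What a batch stood for is not given in the labels, and its parts cannot be told apart.

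The γ subunit of eIF2 is encoded by an X-linked gene, Eif2s3x (chromosome X), and a Y-linked copy, Eif2s3y (chromosome Y). Eif2s3y had 0 or 1 counts in 10 of the 18 libraries of batch 1 and 10.4 to 22.7 CPM in the other 8. In batch 2 all 18 libraries had it, at 5.997 to 35.3 CPM. In the first 10 libraries Eif2s3x lay at 119 to 190.2 CPM and Xist, the RNA of the inactive X, at 471 to 982 CPM. Eif2s3x was 51.6 to 126 CPM in the other 8 libraries of batch 1, where Xist was 16.7 to 55.7 CPM, and 64.9 to 98.8 CPM in batch 2, where Xist was at most 3.51 CPM. The libraries without Eif2s3y were 4 of 6 in control, 3 of 6 in DEX and 3 of 6 in DEX + RU-486. The batch difference of Eif2s3x (-0.58 ± 0.10) and its slope with RIN in batch 1 ran alongside this split, which was drawn by the counts of Eif2s3y. The part of the split in these values and in other genes was not tested.

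**Figure D5:**
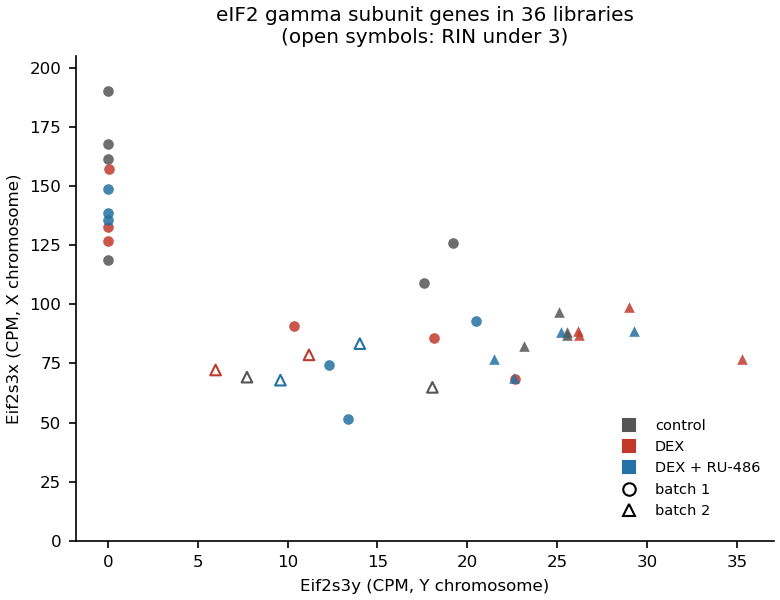
CPM of Eif2s3x (y axis) against CPM of Eif2s3y (x axis) in the 36 libraries by batch, with open symbols for a RIN under 3. The 10 batch 1 libraries near 0 on the x axis hold 119 CPM or more of Eif2s3x.

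Several of the genes share their span with a gene on the opposite strand, among them Eif2b4 with Snx17, Eif4enif1 with Drg1, Eif2ak1 with Aimp2, Eif4a2 with Rfc4, Eif5b with Rev1 and Eef1b2 with Ndufs1. Whether reads were counted by strand is not given in the sources used here, so that reads of such partners cannot be told apart.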

How the data were processed

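The authors deposited 1 table of raw counts per Ensembl gene for 36 libraries, without normalization. Per the submitters' notes and methods, reads were aligned to GRCm38 with HISAT2 2.1.0 and counted with Subread 1.5.0-p2. A second, mismatch-free alignment is also described, and which of them made the table is not given in the sources used here. Of 55492 entries, 55227 matched GENCODE M21, the source of symbols, biotypes and coordinates. All columns were mapped to a library by its label.

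Genes with a mean count above 5 were kept (20355). Each comparison was fitted with edgeR 4.0.16 in R 4.3.3 (TMM factors, quasi-likelihood test, Benjamini-Hochberg adjustment over all tested genes, called at an adjusted p under 0.05), with the batch as covariate for treatments and the group for RIN and batch. The SE is the size of a log2 fold change divided by the square root of F. Sequences were read from the GENCODE M21 transcripts, with coordinates on GRCm38, and 1 of them is not reported here. On data simulated for DEX against control at RIN 6 or above (20355 genes), 98 of 100 genes changed by 1 on the log2 scale and 64 of 100 changed by 0.5 were recovered, with 5 unchanged genes called. The changed genes were drawn above a minimum level and were fewer than those called in the data. No batch or RIN difference was simulated.

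Depth was 12.1 to 82.4 M counts per library. No libraries of a group agreed within sampling noise (smallest chi-square per degree of freedom 6.09). The study's methods call the 12 libraries of a group experimental replicates without saying whether they came from separate cultures or animals, so p-values measure the spread between these libraries.

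The members and gene lists were chosen with earlier results of these data known. Named genes were a set of 29 listed genes, up to 10 called genes per direction and comparison with the smallest p, and the 3 with the smallest p where fewer were called; other genes were named after their values were seen. Alternatives were DESeq2 1.42.0, RLE or upper-quartile factors, no filter or at least 10 counts in every library, no batch or RIN covariate, 1 batch alone, only the 2 groups compared, and leaving out each library.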

Additional observations from a re-analysis of the deposited data

Results flagged for a closer look

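In groups of 4 to 6 libraries of RIN 6 or above, the highest or lowest value of a named gene was compared with the rest by Dixon's ratio. It stood apart in 19 of 168 groups, for 14 of 28 genes, where chance gives about 1 in 20 groups taken singly. The same libraries recur for every gene, so the groups are not independent and that rate is no yardstick for the total. DEX library 7 (RIN 6.2), the lowest RIN among the libraries of its group compared here, was the highest of batch 1 DEX libraries for Eef1a2 (261 CPM against 168 to 190 in the others), Eef1b2 (193 CPM), Eef2 (988 CPM), Eif3a (448 CPM), Eif3f (110.5 CPM) and Eif4g1 (251 CPM). It was the lowest for Eef2k, at 23.9 CPM against 47.9 to 51.5 CPM. DEX + RU-486 library 13 (RIN 6.6), likewise the lowest of those compared, was the highest for Eef1a1 (2721 CPM against 1814 to 1949), Eef1a2 (278 CPM), Eef1b2 (197 CPM), Eef1g (219.7 CPM) and Eif3f (120.0 CPM). The remaining values that stood apart were Eif5a in DEX + RU-486 library 16 (165 CPM), Eif3h in control libraries 6 (132 CPM) and 21 (99.0 CPM), Eif4ebp1 in DEX library 27 (19.8 CPM) and control library 22 (9.90 CPM), Eif2ak4 in DEX + RU-486 library 35 (28.1 CPM) and Eif6 in DEX library 30 (23.1 CPM).

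The difference between batches in the treatment effect passed an adjusted p of 0.05 in edgeR's interaction test for 7 genes in DEX and 2 in DEX + RU-486. On the log2 scale, batch 2 against batch 1, it was -0.92 for Eif2ak3, -0.66 for Eif6, 0.71 for Eif5b, 0.49 for Eif4g3, 0.45 for Eif4g2, 0.60 for Eif4e and 0.52 for Eif3e in DEX. In DEX + RU-486 it was -1.13 for Eif2ak3 and 0.72 for Eif4e3. In batch 1 the control libraries had a RIN of 7.8 to 9.2 and the treated ones of 6.2 to 7.9, and the part of RIN in these differences was not tested.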

How the results depend on the processing

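Counts below are of the 66 genes, higher then lower. The shares of all genes are not set beside them in this section, also where libraries were left out. A changed count is thus not a result about these genes alone. No paired analysis was possible because the library numbers run from 1 to 36 and no 2 groups share one. At RIN 6 or above, DEX against control (6 and 12) gave 0 and 0 with RIN as a covariate, 1 and 0 in batch 2 alone, 3 higher in batch 1 alone and 1 higher without the batch covariate. DEX + RU-486 against control (2 and 10) gave 0 and 1 with RIN as a covariate, 0 and 0 in batch 2 alone, 1 and 5 without the batch, 5 lower with upper-quartile factors and 4 higher with at least 10 counts in every library. DEX + RU-486 against DEX (0 and 0) gave 2 lower in batch 2 alone. Over all libraries DEX against control (0 and 0) gave 2 and 2 with DESeq2, 1 and 1 with RIN as a covariate and 4 and 11 in batch 1 alone, and DEX + RU-486 against control (0 and 0) gave 1 and 1 with DESeq2, 1 lower with RIN and 3 and 12 in batch 1 alone. The slope with RIN (2 and 10) gave 4 higher with at least 10 counts and 5 lower without a filter, the RIN classes (27 and 17) 9 lower with upper-quartile factors, and the batches (4 and 42) 2 higher with at least 10 counts. The batch difference of the DEX effect (5 and 2) gave 2 higher with upper-quartile factors, and that of DEX + RU-486 (1 and 1) gave 2 and 2 with DESeq2 and 0 and 2 with upper-quartile factors. In batch 2 alone the sign turned for Eif6 in DEX (-0.068) and for Eif2ak3 (-0.19) and Eif4g3 (0.019) in DEX + RU-486. The causes of these changes were not tested.

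Leaving out each library, chosen after seeing the data except over all libraries, gave at RIN 6 or above 4 to 6 higher and 8 to 13 lower for DEX, 1 to 3 and 3 to 11 for DEX + RU-486, and 0 to 0 and 0 to 0 between them. The 3 lower came without control library 2, with 4 without control library 5 or DEX + RU-486 library 17, 5 without DEX + RU-486 library 15 and 6 without control libraries 1, 4 or 6 or DEX + RU-486 library 16. Over all libraries it gave 0 to 2 and 0 to 8 for DEX, 0 to 1 and 0 to 3 for DEX + RU-486, and 0 to 0 and 0 to 0 between them, with the highest counts without control library 20 (RIN 1.8). Of the genes called at RIN 6 or above, 11 of 18 in DEX and 4 of 12 in DEX + RU-486 (Eif4ebp1, Eif4enif1, Eif4g1 and Eif4g2) were called in every such fit, as were 39 of 44 for the RIN classes and 6 of 12 for the slope with RIN. The slope with RIN gave 1 to 5 and 7 to 12 (5 without DEX library 7), the RIN classes 25 to 29 and 15 to 18, and the batches 4 to 5 and 39 to 44. The batch difference of DEX gave 0 to 8 and 2 to 3 (8 without DEX library 7, 0 without control libraries 2 or 22 or DEX library 28), and that of DEX + RU-486 0 to 2 and 1 to 3.

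Depth limits low genes: Eef1akmt3, Eef1akmt4, Eef2kmt and Eif2ak2 averaged under 1 CPM in control. The simulated data do not cover these genes, since changes were placed only in genes of higher level. Among those, changes near 0.5 on the log2 scale were recovered in 64 of 100.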
